A study of Tupaia belangeri with 15 samples.

Results

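The nuclei described here were picked as DSCAM-positive bipolar cells (BCs) of the tree shrew (TS, Tupaia belangeri) retina, which carry DSCAM beside CA10. Of these nuclei 81.5% had 3 or more UMIs of the OFF BC gene GRIK1. At least 1 UMI of the amacrine marker PAX6 was seen in 78.7% of the remainder. They were chosen by counts alone, among nuclei with more than 200 and under 6000 genes and under 5% of counts from mitochondrial features: 2 or more unique molecular identifiers (UMIs, 1 per captured RNA molecule) of CA10, 3 or more of DSCAM, under 3 of ERBB4, and 0 of PRKCA, GAD1, GAD2, RBPMS, SLC17A6 and ARR3. Of 119765 nuclei within the limits, 6775 met the rule and are called DSCAM+ nuclei below. The series holds 15 retinas, 5 each from the groups labelled Infancy, Mature and Senile, with no treatment and no genetic change given, each made into a single-nucleus 10x library of polyadenylated RNA. Neither the ages in time nor the sex of the animals stand in the labels, and both are not used here. The senile animals were bought from another institute than the infancy and mature animals, so stage and source cannot be told apart in comparisons with Senile. The levels of CA10, DSCAM, ERBB4 and the 6 genes required at 0 chose the nuclei and are given only as a description.

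BCs carry the signal of photoreceptors to amacrine and ganglion cells. OFF BCs answer glutamate through ionotropic kainate and AMPA receptors, of which GRIK1 is the best known subunit. ON BCs use the metabotropic receptor GRM6, whose cascade closes the channel TRPM1, and the homeobox factor ISL1 marks them. DSCAM is an adhesion molecule of the immunoglobulin family that takes part in the spacing and layering of retinal neurons, and CA10 is a secreted protein that binds neurexins at synapses.

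Libraries held 13429873 to 58734300 UMIs over 83605 features. The 15 libraries fell into 2 sets by the Cell Ranger version in their file headers, 7 with 6.1.2 (Infancy 1 to 3, Mature 1 and 2, Senile 1 and 2) and 8 with 7.0.1, and each stage had libraries of both. The median UMI count of a DSCAM+ nucleus ranged from 1301 in Senile 2 to 4959 in Mature 5. It was 1301 to 2023 in the 6.1.2 set and 1976 to 4959 in the 7.0.1 set. Pairs of libraries shared 4 to 30 cell barcodes, at most 0.422% of a library.

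CA10 at 2 or more UMIs was met by 53789 nuclei. Requiring 0 UMI of PRKCA, a marker of rod BCs, left 35297. GAD1, an enzyme of GABA synthesis, removed 67 nuclei and GAD2 removed 0, so these conditions hardly acted against amacrine cells. RBPMS and SLC17A6, genes of ganglion cells, left 30302 and 28759, and ARR3, the cone arrestin, left 21207. Under 3 UMIs of ERBB4 left 17457, called CA10 nuclei below. DSCAM at 3 or more then kept 6775 of them. Just outside the threshold, 985 nuclei had 1 and 398 had 2 DSCAM UMIs, and just inside it 398 had 3 and 461 had 4. The members held DSCAM at 4204 UMIs per 1000000 UMIs of their summed counts (CPM). In cones, which should hold little of it, 21.3% of nuclei (95% Wilson interval 20.7% to 21.8%, counting error only) had 3 or more DSCAM UMIs at 519 CPM and a median of 3633 UMIs. The share was 42.8% in rod BCs (1345 CPM, median 4656 UMIs) and 80.1% in ganglion cells (1727 CPM, median 7001 UMIs). In Muller cells it was 23.2% (707 CPM). These cells were taken by 3 or more UMIs of PRKCA, RBPMS and RLBP1, and the cones by 3 or more of ARR3. The CA10 and the DSCAM threshold were both met by 74.7% of the ganglion cells and 27.6% of the rod BCs. In Muller cells and cones it was 18.2% and 9.81%. The members' median was 2328 UMIs.

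GRIK1 was counted almost wholly under the numbered copy GRIK1li1, so this feature is read as GRIK1 here. In CA10 nuclei the share with 3 or more GRIK1li1 UMIs was 26.6% at 0 DSCAM UMIs, 34.7% at 1, 54.0% at 2, 71.6% at 3, 72.5% at 4, 75.8% at 5 and 79.7% at 6. The share thus climbed with the DSCAM count, with its largest steps around the threshold. A higher DSCAM count also marks a deeper nucleus, and the part of depth in this climb was not tested.

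The label BC was checked with GRIK1li1 and other BC genes, and did not hold for all members. Of the 6775 DSCAM+ nuclei, 5525 (81.5%) had 3 or more GRIK1li1 UMIs, with a median of 62, and 1250 (18.5%) had under 3, among them 885 with 0. In the former set NETO1, an auxiliary protein of kainate receptors and a pan-bipolar marker, lay at 327 to 504 CPM over the 15 retinas, against 8.51 to 70.8 in the latter. The BC regulator LHX4 lay at 58.2 to 171 CPM against 0 to 9.13, and SOX6, a regulator of neuronal differentiation, at 646 to 973 against 4.21 to 58.5. None of these ranges overlapped, and the share of all genes for which this holds was not computed. The pan-bipolar list went in both directions: against CA10 nuclei without DSCAM 2 of its 8 tested genes were higher (GRIK1li1 and LHX4) and 5 lower (median log2 fold change -0.55), and 2 and 4 for the nuclei with 3 or more GRIK1li1 UMIs, a set in which the GRIK1li1 call is fixed by the choice.

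The nuclei with under 3 GRIK1li1 UMIs were higher in amacrine markers as a group and are called amacrine-marked nuclei below, though not every nucleus held one. PAX6, a regulator kept by mature amacrine cells, lay at 428 to 851 CPM there and at 111 to 254 in the GRIK1li1 set, and a PAX6 UMI was seen in 78.7% against 16.9% of nuclei. TFAP2A averaged 99.4 ± 28.7 against 27.6 ± 12.4 CPM (SD, n = 15 retinas). The summed level of the 7 amacrine markers was 793 to 1333 CPM in these nuclei and 212 to 523 in the GRIK1li1 set, and it was 201 to 368 in CA10 nuclei without DSCAM. The 4 horizontal cell markers were also higher there, at 32.2 to 456 against 25.0 to 83.5 CPM in sum, and the 5 Muller glia markers lower, at 23.2 to 439 against 784 to 1631 CPM. Microglia markers reached 177 CPM there in 1 senile retina. SLC32A1, the vesicular transporter of GABA and glycine, and the BC gene CABP5 were at 0 UMIs in all matrices and say nothing of either set. The amacrine-marked nuclei were also deeper, with a median of 3396 against 1984 UMIs. They made up 10.5% (Infancy 2) to 41.1% (Senile 2) of the DSCAM+ nuclei of a retina, with stage means of 15.3% ± 4.07 (SD, n = 5) in Infancy, 22.5% ± 5.55 in Mature and 22.8% ± 10.9 in Senile. The results below were therefore also computed for the 5525 nuclei alone, named GRIK1li1+ members, a set chosen after the values were seen. Counts of gene lists for this set include GRIK1li1 as a higher gene where the list holds it (pan-bipolar, OFF and glutamate receptor lists), a call that the choice of nuclei fixed.

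**Figure D1:**
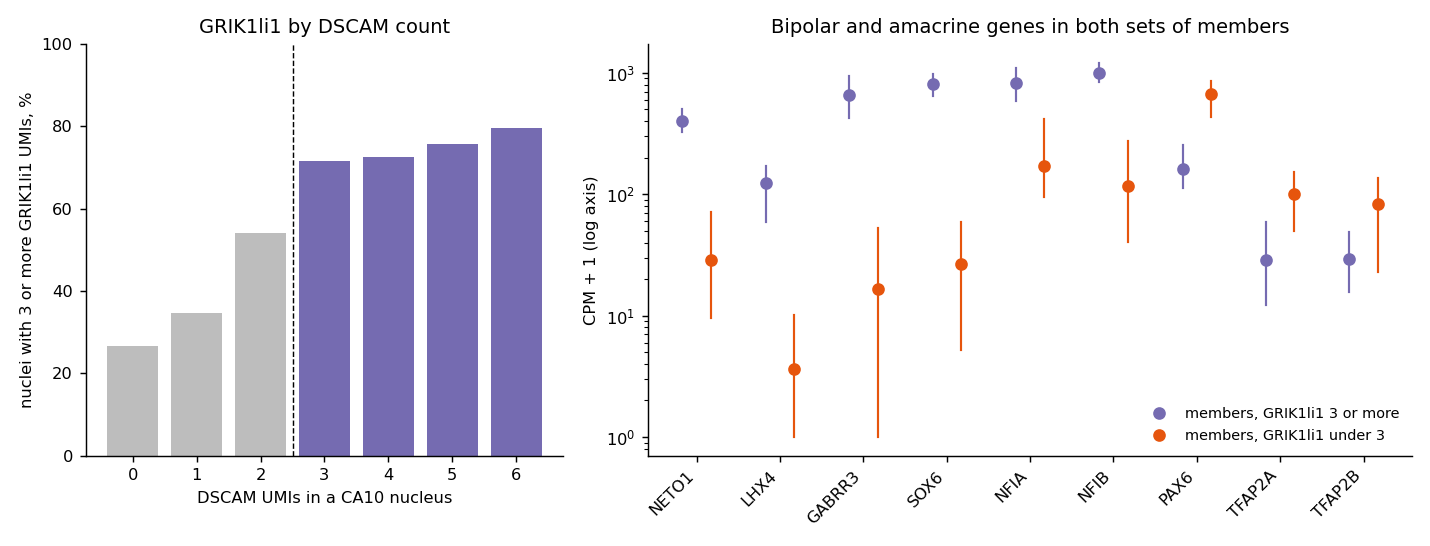
Left, percent of CA10 nuclei with 3 or more GRIK1li1 UMIs (vertical axis) by DSCAM UMIs per nucleus (horizontal axis), from 26.6% at 0 to 79.7% at 6, with a dashed line at the membership threshold. Right, CPM + 1 on a log axis of NETO1, LHX4, GABRR3, SOX6, NFIA and NFIB and of 3 amacrine genes in members with 3 or more and under 3 GRIK1li1 UMIs. Points are means and lines ranges over 15 retinas. The ranges of NETO1, LHX4 and SOX6 lie apart in one direction and that of PAX6 in the other.

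The first question was how many of these nuclei each stage held. Among CA10 nuclei, DSCAM+ nuclei made up 38.3% ± 1.01 (SD, n = 5) in Infancy, 37.7% ± 4.22 in Mature and 40.7% ± 6.77 in Senile retinas. The lowest share was 30.7% in Mature 4 and the highest 51.1% in Senile 4, both outside the infancy range of 37.2% to 39.7%. No pair of stages differed beyond the spread between retinas: Mature minus Infancy was -0.655 percentage points (2-sided exact permutation p = 0.865), Senile minus Infancy 2.35 (exact p = 0.563) and Senile minus Mature 3.0 (exact p = 0.460). For GRIK1li1+ members the shares were 32.5%, 29.1% and 31.5%, and Mature minus Infancy was -3.32 points (exact permutation p = 0.0714, adjusted p = 0.143). With 5 against 5 retinas the smallest p such a test can give is 0.00794.

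As a share of all nuclei within the limits, DSCAM+ nuclei made up 6.88% ± 1.38 (SD, n = 5) in Infancy, 5.16% ± 1.54 in Mature and 4.77% ± 1.90 in Senile retinas. The single retinas ran from 2.64% in Senile 2 to 8.76% in Infancy 3, and the stages overlapped. Mature lay 1.73 points below Infancy and Senile 2.12 points below it, each with an exact permutation p of 0.0794 and an adjusted p of 0.238 over the 6 share tests (Benjamini-Hochberg, BH). Within Cell Ranger versions these differences were -1.51 and -1.90 points (exact permutation p = 0.120 for both). Counting only GRIK1li1+ members gave -1.80 and -2.10 points (adjusted exact permutation p = 0.143 for both).

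The level of DSCAM over all CA10 nuclei was 1828 ± 184 CPM (SD, n = 5) in Infancy, 1904 ± 250 in Mature and 2176 ± 311 in Senile retinas, and is given with no test. The stages overlapped. On the log2 scale Senile lay 0.25 above Infancy. The difference was 0.33 after every nucleus was thinned to 1500 UMIs and 0.19 after thinning to 3000 UMIs, steps that also leave out the shallower nuclei.

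**Figure D2:**
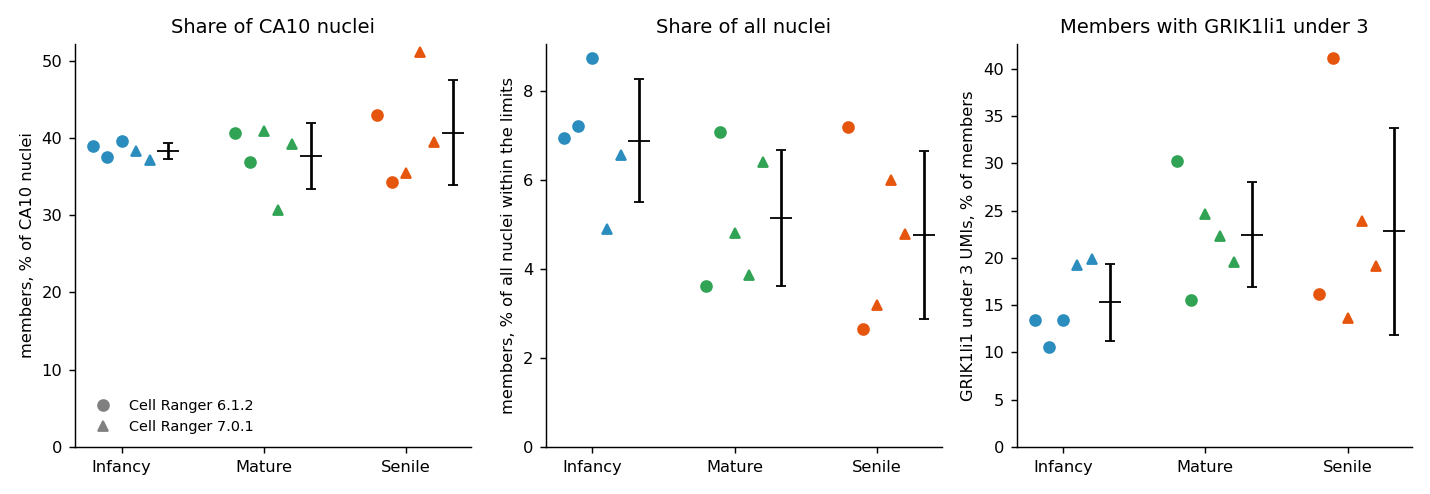
Share of DSCAM+ nuclei among CA10 nuclei (left) and among all nuclei within the limits (middle), and share of members with under 3 GRIK1li1 UMIs (right), in percent, for each of 15 retinas by stage. Circles are Cell Ranger 6.1.2 and triangles 7.0.1 libraries, and black marks are means ± SD over 5 retinas. The stages overlap in every panel, with Senile 2 highest on the right at 41.1%.

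The next question was what else the DSCAM+ nuclei carry. Their UMIs were summed for each retina and set against 3 reference sets that met the same 6 conditions of 0 UMI and the CA10 minimum: 9299 nuclei with 0 DSCAM UMIs (DSCAM-0), 2191 with 3 or more ERBB4 and under 3 DSCAM UMIs (ERBB4 nuclei), and 1029 with 0 DSCAM and 3 or more TRPM1 UMIs (TRPM1 nuclei, the ON side, a subset of the DSCAM-0 nuclei). Senile 2 held 6 TRPM1 nuclei and was left out of that comparison, which then had 14 retinas. Another 1559 nuclei passed both the DSCAM and the ERBB4 threshold and stand in none of these sets. Log2 fold changes ± SE come from edgeR's quasi-likelihood test with the retina as a block, and adjusted p-values are BH over all genes tested. The sets hold other cell types in other proportions, so a difference is one between sets of nuclei.

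Against DSCAM-0 nuclei, 4283 of 10761 genes tested passed an adjusted p of 0.05 (39.8% called, 21.3% higher and 18.5% lower). Against ERBB4 nuclei it was 3108 of 8462 (36.7%, 18.5% higher and 18.2% lower) and against TRPM1 nuclei 2596 of 7314 (35.5%, 19.1% higher and 16.4% lower). Counts of gene groups below are to be read against these shares. In 14.3%, 12.1% and 12.4% of genes tested every retina went in the same direction. Ranges without overlap, given below for single genes, ask for more, and their share over all genes was not computed. For GRIK1li1+ members the shares called higher and lower were 16.9% and 19.8%, 22.4% and 20.6%, and 18.1% and 17.2%. Only the DSCAM+ side was narrowed in these and all later comparisons of GRIK1li1+ members. The reference sets kept their nuclei with under 3 GRIK1li1 UMIs, and 26.6% of DSCAM-0 nuclei had 3 or more. Part of a difference can thus come from this choice, and that part was not tested.

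Summed per retina, GRIK1li1 separated the DSCAM+ nuclei from every reference set. Single nuclei did overlap: 18.5% of members had under 3 UMIs, and 26.6% of DSCAM-0 nuclei had 3 or more. No reference set was limited to nuclei with GRIK1li1. The summed level of GRIK1li1 lay at 11828 to 29401 CPM over 15 retinas (median 23239), lowest in Senile 2. In DSCAM-0 nuclei it lay at 985 to 1975 CPM, with no overlap. The log2 fold change was 4.13 ± 0.08 against DSCAM-0 (edgeR adjusted p = 3.29e-24), 3.71 ± 0.09 against ERBB4 and 5.01 ± 0.13 against TRPM1 nuclei. NETO1, its auxiliary protein, showed no such rise: it was 0.46 lower on the log2 scale than in DSCAM-0 nuclei, and for GRIK1li1+ members the difference was -0.05.

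The ON cascade was lower in the DSCAM+ nuclei. Of 11 genes of this list tested against DSCAM-0 nuclei 10 were lower and 1 higher (median log2 fold change -1.15, against 0.01 over all genes tested), and against TRPM1 nuclei 8 of 9 were lower. The TRPM1 nuclei were chosen by the channel of this cascade, so counts against them were in part set by that choice. For GRIK1li1+ members 8 of 11 and 7 of 9 were lower. ISL1 lay at 15.2 to 71.3 CPM (median 45.2) against 161 to 414 in DSCAM-0 nuclei, a log2 fold change of -2.57 ± 0.09 (edgeR adjusted p = 3.45e-19). GRM6 lay at 1.17 to 10.5 CPM against 18.1 to 45.2 (-2.50 ± 0.14), and GPR179, the orphan receptor that anchors the cascade, at 4.42 to 26.0 against 48.3 to 137 (-2.81 ± 0.15). TRPM1 lay at 35.5 to 126 CPM against 241 to 593 (-2.58 ± 0.09). None of these 4 ranges overlapped, beside 14.3% of all genes tested that went in the same direction in every retina. GNAO1, the G protein of the cascade, was lower by 1.76 and its regulator RGS11 lower by 1.15 on the log2 scale, while RGS7, which acts with RGS11 but is also widely expressed, was 0.44 higher.

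Set against ERBB4 nuclei the cascade gave a mixed account, with 4 of 9 genes higher and 4 lower (median log2 fold change 0.18). ISL1 was 1.01 ± 0.14 higher, at 15.2 to 71.3 against 6.44 to 62.1 CPM, and TRPM1 1.36 ± 0.11 lower. GPR179 was 1.75 lower. These were differences at low levels of the cascade in both sets.

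Of the list of OFF genes and of genes that mark bipolar types of other mammals, 9 of 18 tested were higher and 4 lower than in DSCAM-0 nuclei, 10 of 17 higher and 5 lower than in ERBB4 nuclei, and 10 of 16 higher and 3 lower than in TRPM1 nuclei. For GRIK1li1+ members the counts were 8 higher and 7 lower of 16, 9 and 5 of 17, and 9 and 4 of 15. SOX6 lay at 368 to 729 CPM against 28.1 to 108 in DSCAM-0 and 11.3 to 58.2 in ERBB4 nuclei, with log2 fold changes of 3.45 ± 0.12 and 4.4 ± 0.15. FEZF2, a zinc finger regulator of OFF types in mouse, was higher by 1.15 ± 0.08, 2.54 ± 0.17 and 2.14 ± 0.25 against DSCAM-0, ERBB4 and TRPM1 nuclei. TAFA3, a secreted chemokine-like protein, was higher by 0.50, 1.78 and 0.72. VSX1, a homeobox gene of several cone BC types, was lower, by 2.21 on the log2 scale against DSCAM-0 nuclei (6.45 to 29.1 against 48.4 to 155 CPM). NXPH1, a neurexin ligand, lay at 31.7 to 400 CPM against 735 to 1379 in DSCAM-0 and 3445 to 7160 in ERBB4 nuclei (-3.64 ± 0.17 and -5.93 ± 0.24).

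Transcription factors set the DSCAM+ nuclei off in both directions: 11 of 27 tested were higher and 8 lower than in DSCAM-0 nuclei, 15 of 25 higher and 8 lower than in ERBB4 nuclei, and 10 of 24 higher and 8 lower than in TRPM1 nuclei. GRIK1li1+ members gave 9 higher and 11 lower of 26, 14 and 9 of 25, and 8 and 8 of 22. MEIS2, a homeobox cofactor of the TALE family, lay at 416 to 1077 CPM against 13.1 to 80.5 in DSCAM-0 nuclei (log2 fold change 4.5 ± 0.14, edgeR adjusted p = 7.63e-20), and GRIK1li1+ members gave 4.28. The nuclear factors NFIB and NFIA, which act in late-born retinal cells, were higher by 1.58 ± 0.12 and 1.01 ± 0.09 against DSCAM-0 and by 3.05 ± 0.15 and 1.83 ± 0.16 against ERBB4 nuclei. LHX4 lay at 25.8 to 133 CPM and was higher by 1.14, 1.36 and 1.62 against the 3 sets, in 14 of 15, 14 of 15 and 14 of 14 retinas. ST18, a zinc finger factor, was lower by 2.73 ± 0.11 against DSCAM-0 and 3.24 ± 0.12 against TRPM1 nuclei, and did not differ beyond error from ERBB4 nuclei (-0.21 ± 0.15, edgeR adjusted p = 0.312).

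Inhibitory receptors differed by subunit. Of 17 GABA and glycine receptor genes tested against DSCAM-0 nuclei 9 were higher and 6 lower, against ERBB4 nuclei 4 of 15 were higher and 7 lower, and against TRPM1 nuclei 9 of 14 were higher and 2 lower. In GRIK1li1+ members it was 8 higher and 2 lower of 17, 4 and 6 of 15, and 8 and 0 of 12. GABRR3, a rho subunit of the slow GABA receptors of BC terminals, lay at 321 to 728 CPM (median 417) against 96.5 to 223 in DSCAM-0, 0 to 52.4 in ERBB4 and 40.4 to 183 in TRPM1 nuclei. Its log2 fold changes were 1.72 ± 0.05, 4.45 ± 0.15 and 2.40 ± 0.10, and no range overlapped. GABRB2, a subunit of the fast receptors, was 0.67 ± 0.06 higher than in DSCAM-0 nuclei but 1.07 ± 0.08 lower than in ERBB4 nuclei, where it lay at 828 to 1710 CPM against 345 to 698. The glycine receptor subunit GLRA1 was lower than in DSCAM-0 nuclei (-0.32 ± 0.05), a difference that GRIK1li1+ members did not show (-0.03, edgeR adjusted p = 0.686) and that turned to 0.21 under a gate with 0 UMIs of markers of other cells.

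Among ionotropic glutamate receptors and their auxiliaries 8 of 19 tested were higher and 5 lower than in DSCAM-0 nuclei, 7 of 18 higher and 8 lower than in ERBB4 nuclei, and 8 of 16 higher and 3 lower than in TRPM1 nuclei. For GRIK1li1+ members 5 were higher and 7 lower of 18, 3 and 9 of 17, and 6 and 5 of 15. The AMPA receptor subunit GRIA4 lay at 849 to 1518 CPM against 542 to 974 in DSCAM-0 and 279 to 490 in TRPM1 nuclei, with log2 fold changes of 0.78 ± 0.05 and 1.58 ± 0.08, higher in every retina. Its relative GRIA3 was 0.90 ± 0.07 lower than in DSCAM-0 nuclei, at 160 to 381 against 338 to 536 CPM. The kainate receptor subunit GRIK4 was lower by 0.97, 0.58 and 1.09 against DSCAM-0, ERBB4 and TRPM1 nuclei, but 0.15 higher than in ERBB4 nuclei under a stricter gate with 0 UMIs of markers of other cells. AMPA and kainate subunits thus each went in both directions, as GRIK1li1 was higher.

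Adhesion molecules differed in both directions. Of 19 immunoglobulin and lamination molecules tested against DSCAM-0 nuclei 8 were higher and 8 lower, against ERBB4 nuclei 6 and 11 of 19, and against TRPM1 nuclei 9 and 8 of 19. Of 17 cadherins and protocadherins 9 were higher and 4 lower than in DSCAM-0 nuclei, of 16 tested 10 and 2 against ERBB4 nuclei, and of 14 tested 9 and 3 against TRPM1 nuclei. For GRIK1li1+ members the immunoglobulin list gave 7 higher and 12 lower, 7 and 11, and 9 and 8 of 19. Its median log2 fold change against DSCAM-0 nuclei was -0.49, against 0.14 over all members. The cadherins gave 6 and 5 of 16, 6 and 5 of 14, and 8 and 4 of 14. The contactin CNTN4 lay at 3391 to 6267 CPM against 477 to 1333 in DSCAM-0 nuclei, 120 to 2054 in ERBB4 and 251 to 1675 in TRPM1 nuclei (log2 fold changes 2.57 ± 0.11, 4.28 ± 0.22 and 2.98 ± 0.14). CNTN5 rose by 3.70 ± 0.15 against DSCAM-0 nuclei, but its mean was 499 CPM in GRIK1li1+ members and 2872 CPM in the amacrine-marked nuclei, and the fold for GRIK1li1+ members was 2.43. DSCAML1, the close relative of DSCAM, went the other way: it lay at 85.5 to 286 CPM against 795 to 1440 in DSCAM-0 and 689 to 1492 in ERBB4 nuclei (-2.78 ± 0.09 and -2.83 ± 0.11), with no overlap. NTNG1, a member of the netrin-G family, was lower by 2.80, 2.63 and 2.63 against the 3 sets. The slit receptor ROBO2 was lower by 1.64 and 2.07 against DSCAM-0 and TRPM1 nuclei. For GRIK1li1+ members it was called lower against ERBB4 nuclei too. The cadherins CDH2 and CDH6 were higher against each set, by 0.88, 1.59 and 1.44 and by 0.82, 1.97 and 2.19.

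**Figure D3:**
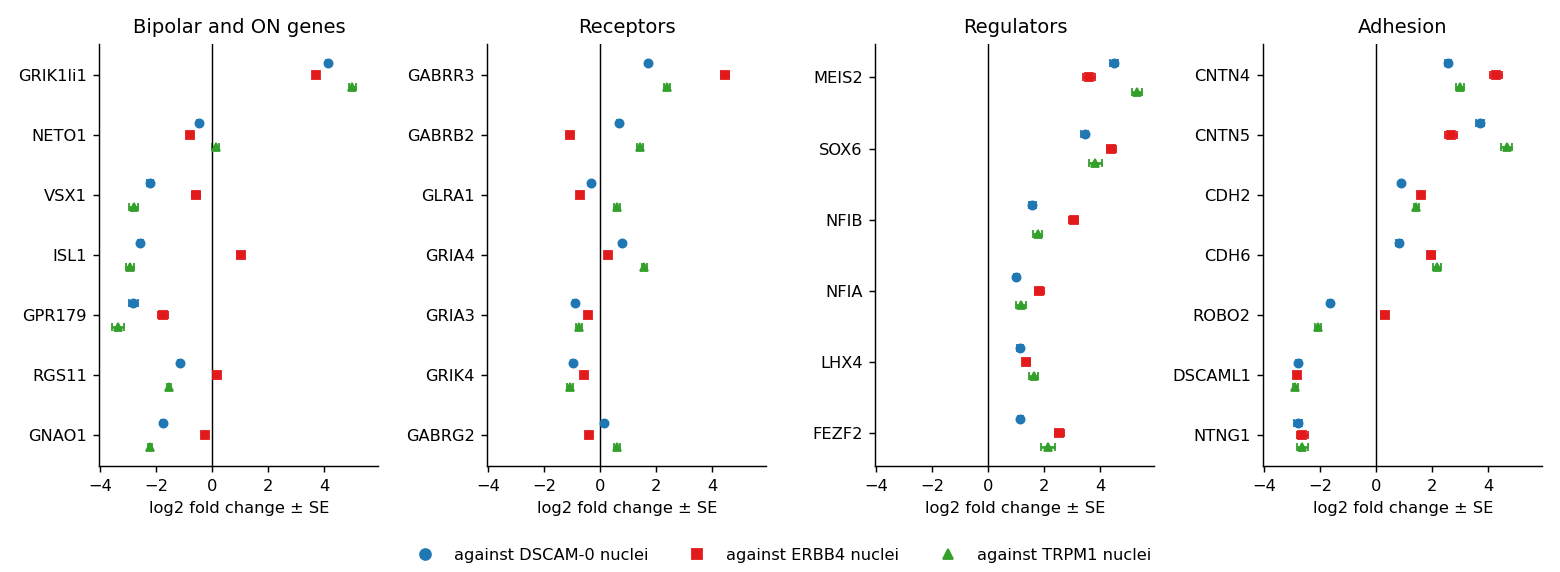
Log2 fold change ± SE (horizontal axis, edgeR) of DSCAM+ nuclei against DSCAM-0 (circles, 15 retinas), ERBB4 (squares, 15 retinas) and TRPM1 nuclei (triangles, 14 retinas) for genes of 4 groups. GRIK1li1, GABRR3, MEIS2, SOX6 and CNTN4 lie right of 0 against every set and DSCAML1, NTNG1, GPR179 and GRIK4 left of it, while GABRB2, GLRA1, ISL1 and ROBO2 lie on different sides by reference, ROBO2 against ERBB4 nuclei within error (0.31, edgeR adjusted p = 0.0718). For GRIK1li1+ members, not drawn here, ROBO2 was called lower than in ERBB4 nuclei. Under the stricter gate GRIK4 and GRIA4 changed sides against ERBB4 nuclei (0.15 and -0.31) and GLRA1 against DSCAM-0 nuclei (0.21).

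Channel and release genes also went in both directions. Of 20 potassium and HCN channel genes tested against DSCAM-0 nuclei 12 were higher and 6 lower, against ERBB4 nuclei 9 and 8 of 20, and against TRPM1 nuclei 9 and 5 of 17. GRIK1li1+ members gave 9 higher and 5 lower of 20, 6 and 8 of 18, and 9 and 4 of 16. The potassium channel subunits KCNQ5 and KCNC2 were higher by 3.14 and 2.56 on the log2 scale against DSCAM-0, 2.09 and 2.16 against ERBB4 and 3.75 and 3.52 against TRPM1 nuclei. Their median levels over 15 retinas were 33.2 and 168 CPM in GRIK1li1+ members and 129 and 751 CPM in the amacrine-marked nuclei. KCNJ3, an inward rectifier, was higher by 1.80 and 3.13 against DSCAM-0 and TRPM1 nuclei and lower by 0.28 against ERBB4 nuclei. KCND3, a subunit of fast inactivating potassium channels, lay at 155 to 652 against 65.7 to 277 CPM in DSCAM-0 nuclei (log2 fold change 1.54 ± 0.08), and the large calcium-activated channel KCNMA1 was 0.46 ± 0.04 lower. Of 17 ribbon synapse and release genes 3 were higher and 9 lower than in DSCAM-0, 6 and 6 than in ERBB4 and 4 and 7 than in TRPM1 nuclei, and for GRIK1li1+ members 5 and 9, 6 and 4, and 4 and 7. CACNA1D, a calcium channel of ribbon synapses, was higher against each set, by 0.57, 0.53 and 0.56. ERC2, a scaffold protein of the release site, was lower by 0.60, 1.05 and 0.27. None of the 10 immediate early genes reached the level needed for the test.

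Of amacrine markers 4 of 6 tested were higher and 0 lower than in DSCAM-0 nuclei, 2 and 3 of 6 against ERBB4 nuclei, and 5 and 0 of 5 against TRPM1 nuclei. GRIK1li1+ members gave 3 and 2 of 6, 1 and 4 of 5, and 3 and 0 of 3. The amacrine-marked nuclei were left out of this set, while the reference sets were not narrowed by GRIK1li1. PAX6 was 1.51 ± 0.07 higher in all DSCAM+ nuclei and 0.58 higher in GRIK1li1+ members, and TFAP2A went from 0.99 ± 0.11 (edgeR adjusted p = 3.00e-08) to 0.16 (edgeR adjusted p = 0.363). Against ERBB4 nuclei PAX6 did not differ beyond error (0.02 ± 0.07, edgeR adjusted p = 0.871), while GRIK1li1+ members lay 0.86 lower (edgeR adjusted p = 6.08e-12). TFAP2A was 1.99 ± 0.09 lower than in ERBB4 nuclei. The ERBB4 nuclei thus held amacrine markers too, and their part in the differences from this set was not tested.

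The largest differences by fold, chosen by a rule on size, level and direction in every retina, included many genes outside the lists. Against DSCAM-0 nuclei FNDC1, a secreted fibronectin type III protein, lay at 123 to 414 CPM against 0.90 to 8.13 (log2 fold change 6.11 ± 0.13, edgeR adjusted p = 1.67e-23), and 7.35 ± 0.21 against TRPM1 nuclei. DPP4, a peptidase of the cell surface, lay at 12.9 to 128 against 0 to 3.86 CPM (5.37 ± 0.13), the collagen chain COL5A3 at 22.6 to 96.6 against 0 to 5.31 (4.80 ± 0.16), and SERTM1 at 25.8 to 125 against 0 to 11 (4.49 ± 0.13). The extracellular protein THBS4 and TEX15 were higher by 4.77 and 4.60. For GRIK1li1+ members FNDC1, DPP4 and COL5A3 gave 6.48, 5.73 and 5.20. CHST9, a sulfotransferase, fell from 5.41 to 2.93, and its mean was 54.3 CPM in GRIK1li1+ members and 1019 CPM in the amacrine-marked nuclei.

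The lower side of that comparison was led by NXPH1, SKOR2 and PTPRQ (-3.59 ± 0.23 and -3.56 ± 0.15 for the latter pair). PTPRQ, a receptor phosphatase, lay at 12.2 to 116 CPM against 226 to 979. RELN, a secreted guidance protein, lay at 59.4 to 210 against 587 to 1315 CPM (-2.90 ± 0.09). Against TRPM1 nuclei the lower side also held the heparan sulfate enzyme HS3ST4 (158 to 412 against 1872 to 3821 CPM, -3.46 ± 0.12), the kinase PRKCQ (-3.22 ± 0.11) and the proteoglycan GPC6 (-3.19 ± 0.12), and the higher side the formin FHOD3 (5.37 ± 0.19) and the phosphodiesterase PDE11A (4.94 ± 0.24).

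Against ERBB4 nuclei the leading genes were in part the same and in part others. CYYR1 lay at 0 to 6.88 CPM in DSCAM+ and 268 to 632 in ERBB4 nuclei (log2 fold change -7.13 ± 0.16, edgeR adjusted p = 1.44e-22). The vesicular glutamate transporter SLC17A8 (VGluT3) lay at 0 to 13.4 against 258 to 1060 CPM (-6.44 ± 0.14). The study names a glycinergic amacrine type after VGluT3, and GRIK1li1+ members were lower than ERBB4 nuclei in 4 of 5 amacrine markers tested. The zinc finger gene BNC2 lay at 0.63 to 19.3 against 194 to 483 CPM (-5.65 ± 0.15) and SGCZ, a sarcoglycan, at 105 to 664 against 5992 to 12441 (-5.31 ± 0.15). On the higher side stood SERTM1 (5.57 ± 0.23), PGM5 (5.38 ± 0.22), the muscarinic receptor CHRM3 (54.8 to 162 against 0 to 20.4 CPM, 4.94 ± 0.19) and NELL1 (4.79 ± 0.16).

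The GRIK1li1+ members were not of 1 kind. Potassium channel subunit KCND2 and MEIS2 marked different nuclei: 2744 (49.7%) had 3 or more KCND2 and 0 MEIS2 UMIs (KCND2 nuclei), 923 (16.7%) the reverse (MEIS2 nuclei), 188 (3.4%) 3 or more of both, and 1670 (30.2%) neither combination. The nuclei with both were deeper, with a median of 4054 UMIs, against 2190 in KCND2 and 1876 in MEIS2 nuclei and 1530 in the rest. This split was made after the values were seen, and its genes are described without a test. The 15 retinas each held both kinds, with 1.19 (Mature 1) to 4.42 (Mature 5) KCND2 nuclei for every MEIS2 nucleus and stage means of 3.38 ± 0.46 (SD, n = 5), 2.76 ± 1.15 and 2.94 ± 0.49.

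Some OFF genes lay at overlapping levels in both kinds. GRIK1li1 averaged 34655 ± 5597 CPM (SD, n = 15 retinas) in KCND2 and 33897 ± 5569 in MEIS2 nuclei, and NETO1 422 ± 64.3 against 429 ± 88.4. TAFA3 lay at 200 to 565 against 103 to 672 CPM and FEZF2 at 25.2 to 157 against 48.5 to 153. Both kinds were required to hold 3 or more GRIK1li1 UMIs, so the likeness in that gene is in part set by the choice of nuclei.

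KCND2 nuclei carried a set of genes that was lower in MEIS2 nuclei, some of them near 0 there. NELL1 lay at 507 to 959 CPM against 0 to 23.6, the secreted protein TAFA4 at 984 to 1450 against 0 to 55.5, and the receptor phosphatase PTPRM at 1751 to 2466 against 21.1 to 154. The cation channel TRPC7 lay at 328 to 800 against 0 to 51.3 CPM, DPP4 at 71.3 to 225 against 0 to 26.4, and KCND3 at 454 to 929 against 0 to 177. The netrin receptor DCC averaged 1989 ± 676 against 187 ± 233 CPM, CDH6 283 ± 33 against 30.8 ± 36.3, and the regulators SOX5 and ZFHX3 741 ± 210 against 213 ± 116 and 512 ± 67.5 against 84.2 ± 58.1. GABRB2 averaged 955 ± 156 against 196 ± 54.6 CPM and GRIK2, a kainate receptor subunit, 899 ± 230 against 166 ± 108. Each of these genes was higher in KCND2 nuclei in 15 of 15 retinas. This was a condition for picking the leading genes and is no result about them.

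MEIS2 nuclei led in a different set, also in 15 of 15 retinas, again a condition for picking the leading genes. The exchanger SLC24A4 lay at 506 to 1222 CPM against 22.1 to 119 in KCND2 nuclei, CSMD2 at 308 to 628 against 13.0 to 50.5, and CCDC85A at 1334 to 3031 against 278 to 626. The homeobox gene PROX1 averaged 286 ± 71.1 against 63.8 ± 33.5 CPM and the regulator DACH2 405 ± 118 against 64.9 ± 44.0. The potassium channel KCNH5 lay at 693 to 2126 CPM against 269 to 464, and CNTN4 at 7950 to 11553 against 4769 to 7096. GABRR3 averaged 932 ± 236 against 616 ± 114 CPM and GLRA1 435 ± 123 against 250 ± 71.4, while the rho subunit GABRR1 averaged 216 against 209 CPM. Of 1510 single genes at 100 CPM or more in either kind, 141 were higher in KCND2 and 116 in MEIS2 nuclei in every retina.

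**Figure D4:**
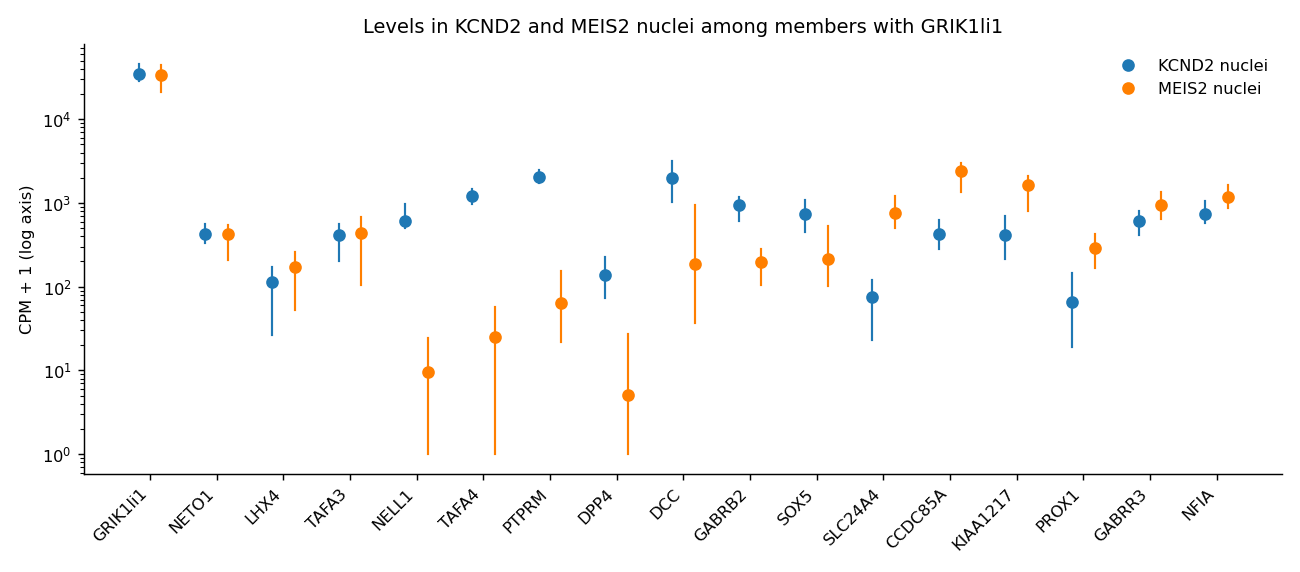
Mean (points) and range over 15 retinas (lines) of CPM + 1 on a log axis for 17 genes in KCND2 and MEIS2 nuclei among GRIK1li1+ members. The left 4 genes overlap, NELL1 to SOX5 are higher in KCND2 nuclei, and SLC24A4 to NFIA are higher in MEIS2 nuclei.

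The last question was whether the DSCAM+ nuclei differ by stage. They were compared over the 15 retinas in 1 fit with stage and Cell Ranger version as terms (edgeR quasi-likelihood test, BH over all genes tested). A summed count does not tell fewer nuclei of a kind from less RNA in each of them. Of 11187 genes tested, 49 differed between Mature and Infancy (0.438% called, 41 or 0.366% higher and 8 lower, but 151 higher and 231 lower with no filter on low counts and 72 and 38 with DESeq2), 78 between Senile and Infancy (0.697%, 73 higher and 5 lower, but 264 and 125 with no filter) and 2 between Senile and Mature (0.0179%, both higher, but 97 higher and 41 lower with no filter). In GRIK1li1+ members 35 genes of 10229 were higher (0.342%) and 4 lower (0.0391%) in Mature than in Infancy, 55 higher (0.538%) and 5 lower (0.0489%) in Senile than in Infancy, and 1 higher (0.00978%) and 0 lower in Senile than in Mature. Over all members, at an unadjusted p under 0.05 the counts were 1021, 870 and 855. Most of the called features were numbered copies (27, 36 and 2) or antisense and LINC features (16, 23 and 0), and single named genes made up 5, 18 and 0.

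IGF2BP2, an RNA-binding protein of fetal and young tissue, fell in both comparisons with Infancy. It lay at 55.6, 56.5, 61.3, 49.7 and 43.0 CPM in the infancy retinas 1 to 5, at 5.90, 5.58, 7.48, 3.06 and 3.79 in the mature and at 0.91, 3.22, 2.30, 4.17 and 2.93 in the senile ones. Each infancy retina lay above every other retina, a pattern without overlap that 1.83% of genes tested showed between Mature and Infancy and 1.95% between Senile and Infancy, beside 0.742% between Senile and Mature. The log2 fold change was -3.32 ± 0.25 for Mature (edgeR adjusted p = 2.24e-06) and -4.23 ± 0.31 for Senile (edgeR adjusted p = 3.12e-07). DSCAM-0 nuclei averaged 55.0, 5.57 and 3.28 CPM in the 3 stages, and the difference between the sets of nuclei in the senile change was -0.15 ± 0.54 (edgeR adjusted p = 1.00). In DSCAM+ nuclei IGF2BP1 was at 0 UMIs in every retina and IGF2BP3 at 38 UMIs in all.

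DCC, which guides axons toward or away from netrin, was higher after Infancy. It lay at 942, 863, 881, 831 and 922 CPM in infancy, 1190, 1274, 1613, 1188 and 1877 in mature and 1718, 1415, 1299, 1431 and 1595 in senile retinas, so all infancy retinas lay below all others. The log2 fold change for Senile was 0.66 ± 0.14 (edgeR adjusted p = 0.0270), and 0.64 ± 0.14 for Mature missed the threshold (edgeR adjusted p = 0.0532). The senile call was lost without any 1 of Infancy 2, 3, 4 or 5 or Senile 1, 4 or 5, where the edgeR adjusted p reached 0.125 without Senile 1, while the log2 fold change stayed between 0.56 and 0.72. GRIK1li1+ members gave 0.83 ± 0.12 for both Senile (edgeR adjusted p = 0.000641) and Mature (edgeR adjusted p = 0.00175). In KCND2 nuclei DCC averaged 1167, 2268 and 2530 CPM in Infancy, Mature and Senile and in MEIS2 nuclei 142, 365 and 54.3 CPM. DSCAM-0 nuclei held 1556, 1767 and 1686 CPM.

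The senile change of DCC was larger in DSCAM+ than in DSCAM-0 nuclei, by 0.64 ± 0.11 on the log2 scale (edgeR adjusted p = 0.0200). This test of the difference between changes passed for 4 of 13196 genes (0.0303% called, 3 or 0.0227% higher and 1 or 0.00758% lower, with 699 at an unadjusted p under 0.05). UTRN, the dystrophin relative utrophin, averaged 312, 293 and 291 CPM in DSCAM+ nuclei and 231, 342 and 392 CPM in DSCAM-0 nuclei (-0.88 ± 0.15, edgeR adjusted p = 0.0200). The count fell to 0 without any 1 of Infancy 1, Infancy 2, Infancy 3 or Senile 4, and it was 17 without Infancy 4, 13 without Senile 1 and 1 without Senile 5, where DCC and UTRN both missed the threshold (edgeR adjusted p = 0.101). With GRIK1li1+ members 2 genes of 12034 were higher (0.0166%) and 1 lower (0.00831%). With GRIK1li1+ members DCC gave 0.82 and UTRN -1.03 (edgeR adjusted p = 0.00121 for both).

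Other single genes differed between Senile and Infancy. NPHS1, the adhesion molecule nephrin, lay at 118, 122, 150, 106 and 130 CPM in infancy, 53.1, 96.3, 101, 71.9 and 94.1 in mature and 61.3, 32.2, 71.3, 75.1 and 77.5 in senile retinas (log2 fold change for Senile -1.05 ± 0.20, edgeR adjusted p = 0.0143). SYBU, which links axonal cargo to kinesin, lay at 97.0, 124, 104, 109 and 102, at 196, 173, 164, 122 and 109, and at 174, 245, 166, 216 and 188 CPM (0.84 ± 0.16, edgeR adjusted p = 0.00813). Infancy and senile retinas did not overlap in either gene, while mature retinas overlapped with both stages in SYBU. GRIK1li1+ members kept both calls, at -0.90 and 0.93 (edgeR adjusted p = 0.00882 and 0.0123). Without Senile 1 NPHS1 missed the threshold (edgeR adjusted p = 0.0573), and SYBU passed it without any 1 retina. With the replicate number added to the fit as a block, the calls of NPHS1, SYBU and DCC were lost.

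**Figure D5:**
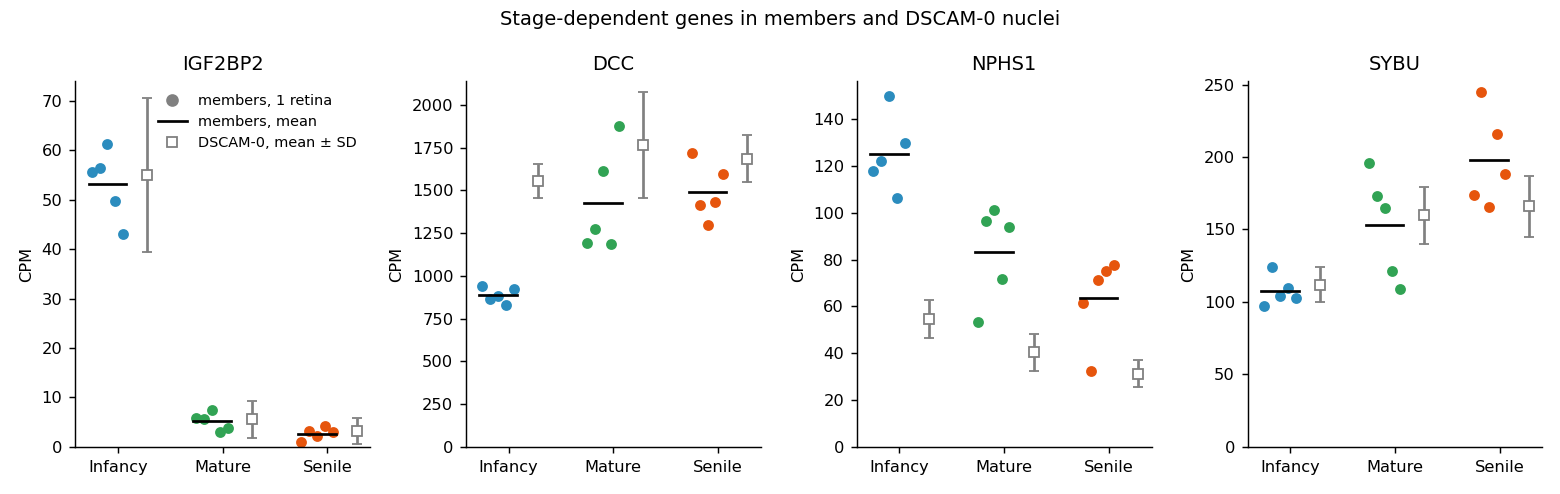
CPM of IGF2BP2, DCC, NPHS1 and SYBU in DSCAM+ nuclei of each retina (dots) by stage, with the mean of 5 retinas (line) and the mean ± SD of DSCAM-0 nuclei (open squares). Infancy retinas lie above all others for IGF2BP2 and below all others for DCC, whose level in DSCAM-0 nuclei is 1556 CPM or more at each stage.

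The actin-binding gene NEBL averaged 25.3, 53.6 and 62.9 CPM in the 3 stages and rose by 1.09 ± 0.22 in Mature and 1.27 ± 0.22 in Senile retinas (edgeR adjusted p = 0.0292 and 0.00576), and in GRIK1li1+ members it missed the threshold at 1.03 and 1.34 (edgeR adjusted p = 0.247 and 0.0815). TET1, an enzyme that oxidizes methylated cytosine, averaged 153, 126 and 107 CPM (-0.66 ± 0.14 for Senile, edgeR adjusted p = 0.0390), and GRIK1li1+ members gave -0.75 (edgeR adjusted p = 0.0594). ABCA5, a lipid transporter, averaged 111, 143 and 175 CPM (0.65 ± 0.13, edgeR adjusted p = 0.0215), and in GRIK1li1+ members it passed the threshold in Senile (0.86, edgeR adjusted p = 0.000867) and Mature retinas (0.79, edgeR adjusted p = 0.00382). EGFLAM, an extracellular protein of the photoreceptor ribbon synapse, averaged 34.8, 47.3 and 64.2 CPM (0.83 ± 0.18, edgeR adjusted p = 0.0463), and its call was lost in GRIK1li1+ members (0.70, edgeR adjusted p = 0.33). The senile calls of TET1, ABCA5 and EGFLAM were lost without any 1 of 9, 3 and 10 retinas, with edgeR adjusted p up to 0.130, 0.0913 and 0.171, and the mature call of NEBL without any 1 of 8. With no version term the calls of TET1, ABCA5 and EGFLAM and the mature call of NEBL were also lost (edgeR adjusted p up to 0.766), while those of DCC, NPHS1, SYBU and IGF2BP2 passed. The summed level of the 11 photoreceptor markers in DSCAM+ nuclei was 204 to 311 CPM in infancy, 176 to 335 in mature and 219 to 639 in senile retinas, 0 of 9 tested passed in any pair of stages, and its part in these results was not tested.

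Some stage differences stood beside the amacrine-marked nuclei. LAMA2, a laminin chain, averaged 9.52, 28.3 and 55.9 CPM over all DSCAM+ nuclei (2.15 ± 0.43, edgeR adjusted p = 0.0172), and 25.2, 88.7 and 189 CPM in the nuclei with under 3 GRIK1li1 UMIs. NPAS3, a transcription factor of the bHLH-PAS family, averaged 89.3, 153 and 194 CPM over all (1.03 ± 0.19, edgeR adjusted p = 0.00999) and 186, 321 and 427 CPM in those nuclei. FSTL4, a secreted follistatin-like protein, averaged 136, 229 and 275 CPM over all (0.79 ± 0.18, edgeR adjusted p = 0.0479) and 366, 596 and 831 CPM there. In GRIK1li1+ members FSTL4 gave -0.15 and NPAS3 0.66 (edgeR adjusted p = 1.00 and 0.717), and LAMA2 was too low to test. Over all DSCAM+ nuclei the calls of LAMA2 and FSTL4 were also lost without any 1 of 4 and 12 retinas (edgeR adjusted p up to 0.121 and 0.158), and with no version term (edgeR adjusted p = 0.264 and 0.668). The share of amacrine-marked nuclei had stage means of 15.3%, 22.5% and 22.8% with overlapping retinas, and its part in these results was not tested.

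GRIK1li1, NETO1, NFIA, NFIB, LHX4, SOX6 and FEZF2, genes named above, all missed the threshold in each pair of stages, where 0.438%, 0.697% and 0.0179% of all genes passed it. With so few calls over all genes, 0 among these 7 is no result about them. SOX6, for one, averaged 569, 604 and 613 CPM and LHX4 84.9, 102 and 83.8. Of the gene lists, 1 of 20 immunoglobulin and lamination molecules tested rose in Senile against Infancy (DCC), beside 0.653% of all genes, and 1 of 8 developmental genes fell in both comparisons with Infancy (IGF2BP2), beside 0.0715% and 0.0447%. The lists of ON cascade, OFF, glutamate receptor, GABA and glycine receptor, ribbon, cadherin, potassium channel, transcription factor and respiratory genes held 0 calls in each pair of stages, which is near the share over all genes, and no immediate early gene reached the level needed for the test.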

How the data were processed

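Per the labels, nuclei were extracted from frozen retinas and made into 10x 3′ libraries, named v2 in the labels and v3.1 in the study's methods. With Cell Ranger and the genome build TS_3.0, the authors made and deposited 1 matrix of raw UMI counts for each retina. The file headers give versions 6.1.2 and 7.0.1, and the submitters' processing notes give 5.0.1 for the first set. The matrices were used as deposited. No doublet caller was run here, and the conditions of 0 UMI, the gene limit and the alternatives stand in for one.

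The members and gene lists were chosen with earlier results of these data known. UMIs were summed per retina and set of nuclei (10 or more nuclei each) and tested with edgeR 4.0.16 in R 4.3.3 (TMM, filterByExpr, quasi-likelihood, BH over all genes tested). DESeq2 1.42.0 was an alternative. The study tested nuclei with a mixed model and shares with an analysis of variance. The mixed model was replaced because the retina is the replicate, and the analysis of variance by an exact test because a stage holds 5 retinas. CPM is UMIs per 1000000 UMIs of a set, while folds come from the TMM-scaled fit, and the SE is the fold over the root of F. Shares were tested by 2-sided exact permutation of retinas (252 splits). The study describes 15 donor animals, 5 a stage, so each retina was read as 1 animal, which the labels do not state. Counts were summed with numpy 2.4.6 and scipy 1.17.1 under Python 3.11.15.

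Named genes were up to 10 higher and 10 lower by fold among genes past an adjusted p of 0.05, with groups that do not overlap (paired comparisons: 1 direction in every retina) and 10 CPM or more in every retina of the higher group, and in addition members of the lists. Genes of the rule, numbered copies, antisense and LINC features were counted but not picked, and genes of KCND2 and MEIS2 nuclei and those described beside the amacrine-marked nuclei were chosen after their values were seen. DSCAM and the other genes of the rule are no results, so the planned test of the DSCAM level is not reported, and some genes are not reported here. A stricter gate asked for 0 UMIs of 40 markers of other cell types. PAX6, MEGF11 and SLC1A3 were not among these markers, so nuclei that carried them could pass.

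The fit was tested on simulated counts with the same mean of a gene in every retina, apart from 100 genes changed per fold. No effect of retina, library set or cell mixture was simulated, so the figures hold for that setting only. For Senile against Infancy (11195 genes) it found 44% of 2-fold and 90% of 4-fold changes with 4 false calls, and for members against DSCAM-0 nuclei (10768 genes) 92% and 88% with 5.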

Additional observations from a re-analysis of the deposited data

Results flagged for a closer look

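Of 96 groups of 5 retinas looked at, 6 held a retina far from its 4 neighbours (gap over range above Dixon's critical value of 0.71), where chance gives about 1 in 20. CRYM, a thyroid hormone binding protein called lower in Senile than Infancy, lay at 180 CPM in Infancy 4 against 15.1 to 26.7 in the other infancy retinas, and at 52.0 CPM in Mature 4 against 13.3 to 16.5. Without Infancy 4 its log2 fold change of Senile against Infancy was -1.46 and missed the threshold (edgeR adjusted p = 0.274), as it did without any 1 senile retina (edgeR adjusted p up to 0.102) and in GRIK1li1+ members, where it was -2.52 against -2.60 over all members (edgeR adjusted p = 0.0650). NEBL lay at 85.0 CPM in Mature 1 against 38.5 to 52.0 in the other mature retinas. The antisense feature SVBP-AS-1 lay at 12 CPM in Mature 5 against 3.54 to 5.75. NFIB lay at 813 CPM in Infancy 5 against 679 to 707, and SOX6 at 487 CPM in Infancy 4 against 574 to 610.

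In 4 features the change from Infancy to Senile differed between DSCAM+ and DSCAM-0 nuclei (edgeR interaction term). The differences on the log2 scale were 0.64 for DCC (adjusted p = 0.0200), -0.88 for UTRN (adjusted p = 0.0200), 1.34 for LIN1li19 (adjusted p = 0.0429) and 2.62 for SVBP-AS-1 (adjusted p = 0.0428). LIN1li19 and SVBP-AS-1 averaged 78 and 18.2 CPM in infancy and 30.5 and 9.25 CPM in senile DSCAM+ nuclei, against 273 and 91.7 and 47.7 and 7.39 CPM in DSCAM-0 nuclei. LIN1li19 is a numbered copy of a repeat family, whose reads cannot be placed with certainty.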

How the results depend on the processing

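Between Mature and Infancy 49 genes were called, against 382 with no filter on low counts, 110 with DESeq2, 32 with no version term, 28 with a replicate block, 18 with nuclei thinned to 1500 UMIs and 2 with the stricter gate. Between Senile and Infancy the 78 became 389 with no filter, 37 thinned and 11 with the stricter gate. Between Senile and Mature the 2 became 138 with no filter, 14 with DESeq2, 5 with DSCAM at 5 or more, 1 with no version term, 1 with the replicate block, 1 for GRIK1li1+ members and 0 thinned or with the stricter gate, which kept 1554 nuclei. Calls were 1266 (stricter gate) and 2450 (thinned) against DSCAM-0 nuclei, 5412 (no filter), 612 (stricter gate) and 2059 (thinned) against ERBB4 nuclei, and 5187, 726 and 844 against TRPM1 nuclei. The interaction gave 76 with no filter and 8 with a set by version term. Fewer nuclei and UMIs enter under the stricter gate and the thinning, and otherwise the cause was not tested.

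Without 1 retina the counts were 29 to 57, 72 to 98 and 1 to 3 by stage, 4071 to 4315, 2902 to 3179 and 2111 to 2706 against DSCAM-0, ERBB4 and TRPM1 nuclei, and 0 to 17 for the interaction. The share of CA10 nuclei then moved between -1.46 and 1.10 points for Mature minus Infancy, -0.270 and 3.95 for Senile minus Infancy, and 0.384 and 4.60 for Senile minus Mature. The share of all nuclei moved between -2.22 and -1.26, -2.73 and -1.59, and -0.998 and 0.140 points, and the log2 DSCAM level between -0.0012 and 0.14, 0.18 and 0.30, and 0.10 and 0.25.

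The share of CA10 nuclei turned to 1.30 (thinned) and 2.18 points (DSCAM at 5 or more) for Mature minus Infancy, to -0.925 for Senile minus Infancy with GRIK1li1+ members and to -0.475 for Senile minus Mature with DSCAM at 5 or more. The share of all nuclei for Mature minus Infancy turned to 0.320 (thinned). No share passed the threshold under these. The log2 DSCAM level, a description, was 0.33 thinned (Senile minus Infancy), and with the stricter gate 0.51 (Senile minus Infancy) and 0.33 (Senile minus Mature).

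Single genes turned direction with the stricter gate against DSCAM-0 nuclei (log2 fold change GLRA1 0.21, KCNQ3 -0.31) and ERBB4 nuclei (ABCA5 0.80, GRIA4 -0.31, GRIK4 0.15, KCNMA1 -0.011). BHLHE22 against DSCAM-0 nuclei turned to -0.11 thinned and -0.38 for GRIK1li1+ members, NXPH1 against TRPM1 nuclei to 0.0067 thinned, and FSTL4 between Senile and Infancy to -0.15 for GRIK1li1+ members. Replicate numbers share no animal or batch in the labels. They followed the library sets in part: numbers 1 and 2 were 6.1.2 and numbers 4 and 5 were 7.0.1 libraries in every stage. Deviations of same-numbered retinas from stage alone had a median r of 0.191 over 15 pairs, 11 of them above 0.1, and from stage and version -0.105, with 2 above 0.1. Under these checks 3 and 1 retinas correlated best with their own number, and not every pair passed 0.1, so the numbers do not pair the retinas. With the block Senile against Infancy gave 60 genes, and of 20 named stage results 5 kept their call (IGF2BP2 in both comparisons with Infancy, NEBL, CRYM and RSPO3 in Senile) and 15 lost it, those of DCC, NPHS1, SYBU, TET1, ABCA5 and EGFLAM among them. With no version term 12 kept it and 8 lost it (NEBL and SVBP-AS-1 in Mature, and CRYM, LAMA2, TET1, EGFLAM, FSTL4 and ABCA5 in Senile). With the stricter gate 129 results of named genes kept direction and call, 16 lost the call and 6 turned. Of the named genes, 223 results kept their direction and call with DESeq2 and 5 lost the call, and without any 1 retina 210 to 223 kept them and 0 turned direction. Of simulated 2-fold changes 44% were found between Senile and Infancy and 92% against DSCAM-0 nuclei, and the part of depth in this was not tested.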
